A study of Cicer arietinum with 12 samples.

Results

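The difference between the chickpea (Cicer arietinum) genotypes ICC8261 and ICC283 in drought-stressed leaves was measured by RNA sequencing. It rests on 6 of the 12 libraries of the study: 3 of drought-stressed ICC8261, which the labels call drought tolerant, and 3 of drought-stressed ICC283, which they call drought sensitive. Drought meant soil held at 20% of field capacity, and the well-watered plants of the other 6 libraries, 3 per genotype, stood at 80%. All plants grew in glasshouse pots at 23 to 28 °C, 6 pots per genotype. The tissue entry gives the shoot apical meristem stage while the source entry gives leaf. The labels do not state that each library came from a separate pot, so the p-values below measure the spread between these libraries. The study asked how the genotypes differ in drought-responsive genes, above all in transcription factor and hormone signalling genes.

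The 6 libraries were chosen by the columns of the authors' deposited tables of normalized counts, 1 table per genotype. Whole reads recovered from the columns equalled the deposited count files at every gene, but 4 of the 12 libraries carry the opposite treatment in the count files. Among the drought libraries these are ICC8261 drought library 2, filed as ICC8261 well-watered library 1, and ICC283 drought library 3, filed as ICC283 well-watered library 3. Tables and count files never differed in genotype, and 8 libraries, 2 in each group, carry 1 treatment throughout; these are called the 8 undisputed libraries below. The dehydrin gene DHN lay between 189 and 743 CPM (reads scaled to a common library total) in the 6 libraries placed under drought by the tables and between 4.46 and 39.9 CPM in the 6 placed as well-watered. Results are given by the table columns, by which the libraries were chosen, and where the placement changes them this is stated.

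Plants short of water close their stomata, slow growth and turn on genes for protective proteins, much of it through abscisic acid and families of transcription factors such as the NAC factors. Late embryogenesis abundant (LEA) proteins, dehydrins among them, protect membranes and enzymes in drying cells, and proline and galactinol-derived sugars act as osmolytes. Genotypes of a crop can differ in such genes at all times or only under stress, and a comparison within drought alone holds both kinds, so the well-watered difference is given beside it.

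Each library held between 8910704 and 12192098 reads on genes, and the drought libraries between 8910704 and 11603346. Between 44.1% and 53.5% of the alignments counted per library were not unique and were assigned to no gene. In the drought libraries this share was between 49.3% and 52.8% for ICC8261 and between 50.5% and 53.5% for ICC283. The leaf markers set for the check had no row by symbol and were not used here, and the 10 plastid-encoded genes took between 5.87% and 7.41% of the reads on genes in ICC8261 drought leaves and between 7.62% and 8.16% in ICC283 drought leaves. The floral meristem gene LFY had 9 and 6 reads in the 3 drought libraries of ICC8261 and of ICC283, and the lectin gene LEG had 1 and 2. The gene nodulin-35, counted in the same check, had 860 reads in the ICC8261 drought libraries and 827 in those of ICC283. The genes of this check were thus not all close to unread, and the source of the nodulin-35 reads was not tested. The part of the plastid share or of the not-unique share in the results below was not tested.

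In the first principal components of log2 CPM the ICC8261 drought libraries scored between -36.4 and 12.1 on component 1 and the ICC283 drought libraries between -110.7 and -56.4, with no overlap. Within each genotype the well-watered libraries lay higher, between 66.3 and 75.4 for ICC8261 and between 5.48 and 58.6 for ICC283. On component 2 both ICC8261 groups were above 0, while ICC283 well-watered libraries 1 and 2 stood apart at -79.6 and -61.5. Those libraries enter the well-watered difference and the spread shared by all groups, not the drought difference itself.

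**Figure D1:**
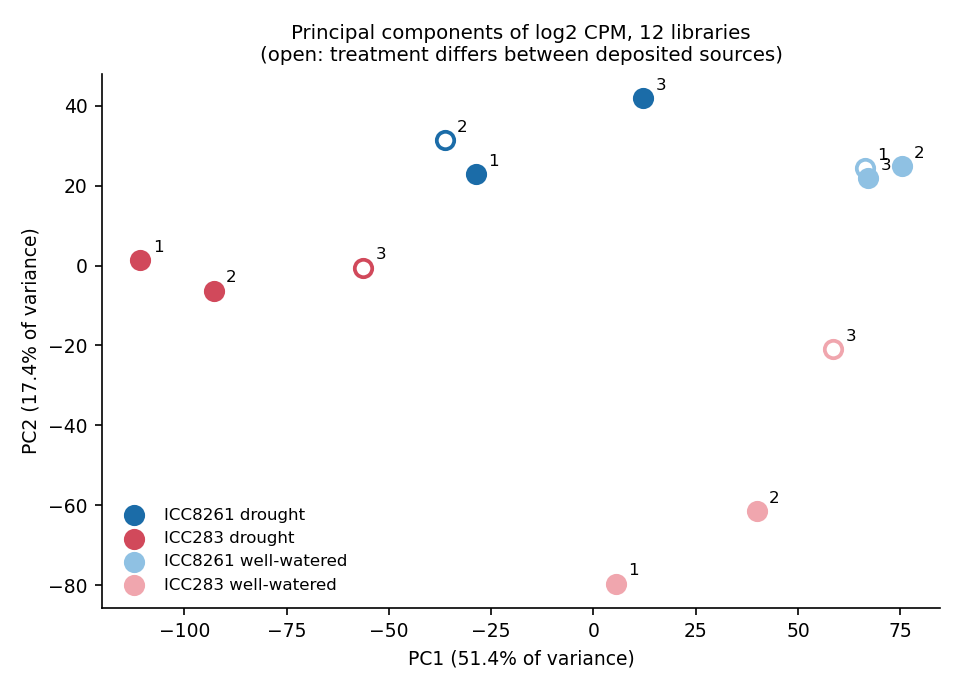
Scores of the 12 libraries on the first 2 principal components of log2 CPM over all genes tested, which held 51.4% and 17.4% of the variance. Colours give genotype and treatment by the table columns and open symbols the 4 libraries whose treatment differs between the deposited sources. The drought libraries of ICC8261 and ICC283 do not overlap on component 1.

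Of 18592 genes tested, 1913 (10.3%) differed between the genotypes under drought at an adjusted p under 0.05 (edgeR quasi-likelihood test, Benjamini-Hochberg over all genes tested). Of these, 1150 (6.19%) were higher in ICC8261 and 763 (4.1%) were lower. Called genes higher in ICC8261 had a median log2 fold change of 1.26, those lower a median of -0.84, and the median over all genes tested was 0.01. Called genes that differed by 1 or more on the log2 scale, in either direction, numbered 1036 (5.57%), those by 2 or more 371, and those by 5 or more 46, of which 28 were higher and 18 lower in ICC8261. The count moved with single libraries: it was 980 and 779 without ICC8261 drought libraries 1 and 3, 673 and 628 without ICC283 drought libraries 1 and 2, and 3035 without ICC283 well-watered library 3. It was 3551 in the 8 undisputed libraries, which held 1682 of the 1913 calls in the same direction, and 113 with the treatments of the count files, which held 108 of them. In bulk leaf RNA fewer cells of a type and less RNA per cell cannot be told apart.

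Among the genes with a symbol, 38 of 288 tested (13.2%) were called, 24 higher (8.33%) and 14 lower (4.86%) in ICC8261. A rule on size and separation, given with the methods, named 34 of these 38 with 4 unnamed loci, and the text below describes them by role. Of these 38 named calls, 19 were kept whichever single library was left out, and 34 were kept in the 8 undisputed libraries. With the count files' treatments 7 were kept, FTA2, ARF23, CHS, MAPK8 and 3 of the unnamed loci. For all other genes described as higher or lower below, those treatments ended the call, and 1 of them, NAC47, changed sign. A fold change is ICC8261 over ICC283 throughout and is given on the log2 scale with its standard error (SE).

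Members of the FLOWERING LOCUS T family, which encode mobile signals that promote flowering, held the largest difference with a symbol, and they differed in opposite directions. FTA2 measured 24.9, 15.3 and 17.3 CPM in the ICC8261 drought libraries and 0, 0.177 and 0 CPM in those of ICC283. The groups did not overlap, and FTA2 was close to unread in ICC283. Summed over the 3 drought libraries FTA2 had 609 reads in ICC8261 and 2 in ICC283, a ratio per read on genes of 294 with an exact 95% interval of 81.1 to 2434 that covers counting error only. Its adjusted p was 4.71e-06, and the same picture held in well-watered leaves, at 15.04 ± 2.50 CPM in ICC8261 and 0.0644 ± 0.0561 CPM in ICC283 (SD, n = 3 each). FTA1 measured 13.2, 12.9 and 6.31 CPM in ICC8261 drought leaves and 68.8, 70.2 and 37.4 CPM in ICC283 drought leaves. All 3 ICC283 values lay above all 3 of ICC8261 (-2.44 ± 0.32, adjusted p = 0.00106).

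In well-watered leaves FTA1 was at 1.87 ± 0.925 CPM in ICC8261 and 3.81 ± 0.255 CPM in ICC283 (-1.04 ± 0.41, adjusted p = 0.111). The difference of FTA1 between treatments was not called (-1.40 ± 0.53, adjusted p = 0.164). The remaining tested flowering regulators were not called under drought. FT-B, a further family member, was at 2.43 ± 0.95 (adjusted p = 0.12) and FTA3 one of -1.14 ± 0.77 (adjusted p = 0.36), both on means under 4 CPM. FD, the bZIP partner of FT proteins in Arabidopsis, had 0.18 ± 0.19 (adjusted p = 0.56). Of 8 members of this list, TFL1A, TFL1C and LFY had too few reads to be tested.

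A group of genes had all 6 libraries of one genotype above all 6 of the other over both treatments, which is not a call under each. This held for 732 of the 18592 genes (3.94%), for 442 of the 1913 called genes, and for 11 of the 38 with a symbol. ARF23, an auxin response factor by its symbol, one of the transcription factors that act on auxin-regulated genes, measured 36.2, 38.0 and 39.2 CPM in ICC8261 drought leaves and 2.01, 3.02 and 2.16 CPM in those of ICC283. The ICC8261 values lay within a narrow range far above those of ICC283 (3.96 ± 0.23, adjusted p = 4.39e-06), and the well-watered difference was 3.43 ± 0.24. MAPK8, a mitogen-activated protein kinase, of a family that passes on stress and hormone signals, measured 102, 102 and 105 CPM in ICC8261 and 47.3, 48.6 and 50.2 CPM in ICC283 under drought. The libraries of each genotype were close together and the groups far apart (1.08 ± 0.12, adjusted p = 3.35e-04; well-watered 0.96 ± 0.12). FTA2, ARF23, MAPK8 and CHS were called under each of the 20 alternative settings.

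Bglc-2 measured 40.03, 86.3 and 62.5 CPM in ICC8261 drought leaves and 7.95, 4.17 and 6.60 CPM in ICC283 drought leaves. The groups stood apart although the ICC8261 libraries differed among themselves by more than their lowest value (3.34 ± 0.35, adjusted p = 2.39e-04). It was also higher in ICC8261 when well-watered (2.60 ± 0.32, adjusted p = 8.19e-04). The enzyme genes CHS, UGT78G2, UGT71S1, CYP81E5 and UGT72X1, the protease inhibitor gene kpi1 and the cell wall gene pme1, described below, complete these 11. Of the 11, kpi1 and pme1 were not called in well-watered leaves.

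**Figure D2:**
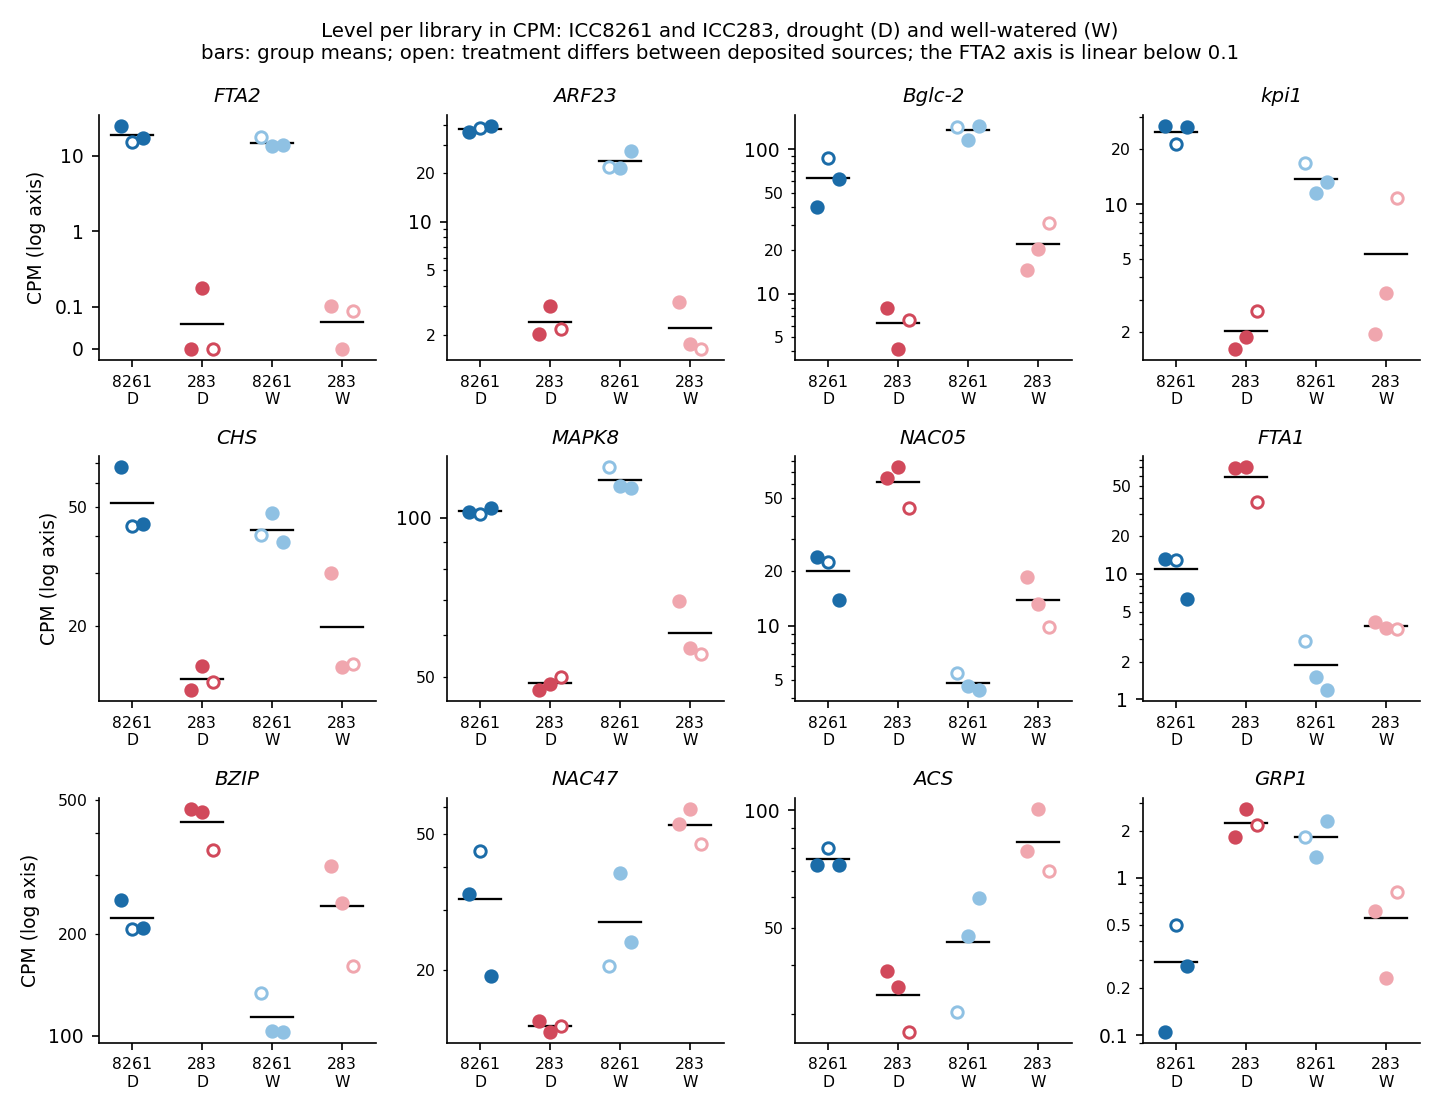
Levels of 12 named genes in CPM, 1 point per library and a bar at the mean of each group, on log axes (linear below 0.1 for FTA2), in ICC8261 drought, ICC283 drought, ICC8261 well-watered and ICC283 well-watered leaves. Open symbols mark the 4 libraries whose treatment differs between the deposited sources. FTA2, ARF23, Bglc-2, kpi1, CHS and MAPK8 were higher and NAC05, FTA1, BZIP and GRP1 lower in ICC8261 under drought, while NAC47 and ACS were higher under drought and lower when well-watered.

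NAC factors, plant transcription factors of which many act in drought and senescence, were called in both directions. Of 50 tested members 6 were higher (12%, against 6.19% of all genes) and 3 lower (6%, against 4.1%), with a median log2 fold change of 0.20 beside 0.01 over all genes. In well-watered leaves 0 of the same 50 were higher (against 5.13% of all genes) and 9 were lower in ICC8261 (against 7.56%), with a median of -0.49. NAC51 measured 10.1, 9.92 and 9.69 CPM in ICC8261 drought leaves and 1.41, 3.37 and 4.22 CPM in those of ICC283. The ICC8261 libraries were nearly equal and all above ICC283 (1.72 ± 0.32, adjusted p = 0.00612). When well-watered, NAC51 stood at 9.10 ± 0.483 CPM in ICC8261 and 10.1 ± 3.27 CPM in ICC283 (SD, n = 3 each).

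NAC47 measured 33.3, 44.5 and 19.1 CPM in ICC8261 drought leaves, against 14.1, 13.1 and 13.6 CPM in ICC283 drought leaves. The lowest ICC8261 library was above the highest of ICC283 (1.25 ± 0.29, adjusted p = 0.0183). In well-watered leaves the order was turned round, with 20.5, 38.5 and 24.1 CPM in ICC8261 and 53.5, 59.5 and 46.8 CPM in ICC283 (-0.94 ± 0.28, adjusted p = 0.0432). NAC6 was at 24.98 ± 2.82 CPM in ICC8261 and 12.2 ± 3.92 CPM in ICC283 under drought (SD, n = 3 each; 1.03 ± 0.26, adjusted p = 0.0278). NAC69 was at 8.94 ± 1.59 and 4.77 ± 0.219 CPM in ICC8261 and ICC283 (0.90 ± 0.22, adjusted p = 0.0235). NAC39 and NAC50, both under 5 CPM, had values of 2.56 ± 0.55 (adjusted p = 0.0128) and 2.1 ± 0.50 (adjusted p = 0.0195).

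The 3 NAC factors lower in ICC8261 were NAC05, NAC52 and NAC30. NAC05 measured 23.8, 22.3 and 13.8 CPM in ICC8261 drought leaves and 64.8, 73.8 and 44.4 CPM in those of ICC283. The groups did not overlap (-1.61 ± 0.26, adjusted p = 0.00293), and NAC05 was also lower in ICC8261 when well-watered (-1.51 ± 0.28, adjusted p = 0.00646). NAC52 had a value of -1.36 ± 0.35 (adjusted p = 0.0318) and NAC30 one of -0.58 ± 0.15 (adjusted p = 0.0262). Single libraries ended several of these NAC calls. The call of NAC39 was lost without ICC283 drought library 1 or 2 (adjusted p up to 0.0708), that of NAC50 without ICC8261 library 1 or ICC283 library 1 or 2 (up to 0.0957), and that of NAC47 without libraries 1 or 2 of either genotype (up to 0.0808). NAC69 was lost without libraries 1 or 3 of ICC8261 or 1 or 2 of ICC283 (up to 0.0965), NAC6 without any 1 of the 6 drought libraries (up to 0.0883), NAC52 without libraries 2 or 3 of ICC8261 or 1 or 2 of ICC283 (up to 0.107) and NAC30 without any ICC8261 library or ICC283 library 1 (up to 0.124). NAC47 and NAC52 were not called in the 8 libraries (adjusted p = 0.0643 and 0.0786), and NAC47 stood at -0.025 with the count files' treatments. Related NAC genes can share reads, which the counting left out as not unique, so levels of close family members are uncertain.

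Other transcription factors were mostly not called. BZIP, a basic leucine zipper factor by its symbol, measured 252, 207 and 209 CPM in ICC8261 drought leaves and 471, 462 and 355 CPM in those of ICC283. It was lower in ICC8261 in every pairing of drought libraries (-0.95 ± 0.22, adjusted p = 0.0178; well-watered -1.10 ± 0.22, adjusted p = 0.0089), and the call was lost without ICC8261 library 2 or 3 or ICC283 library 1 or 2 (adjusted p up to 0.0732). The 7 other members of that list, among them CARERF1 and WRKY40, were not called. Of 19 heat stress factors, many of which switch on chaperone genes, 0 were higher (against 6.19% of all genes) and 1 was lower in ICC8261 (5.26%, against 4.1%). In well-watered leaves 0 of the 19 were higher (against 5.13% of all genes) and 4 were lower (against 7.56%). The 1 called under drought, HSFA6A, was at 7.06 ± 1.30 CPM in ICC8261 and 19.8 ± 4.24 CPM in ICC283 (SD, n = 3 each; -1.48 ± 0.36, adjusted p = 0.0225). It lost its call without any ICC8261 drought library or ICC283 library 1 (adjusted p up to 0.0908). Of 20 auxin response factors ARF23 was higher and ARF6 lower (5% each, against 6.19% and 4.1% of all genes). ARF6 was at 17.1 ± 1.00 CPM in ICC8261 and 29.9 ± 5.63 CPM in ICC283 (-0.80 ± 0.18, adjusted p = 0.0162), and its call was lost without ICC8261 library 3 or ICC283 library 2 (adjusted p up to 0.0545). In well-watered leaves ARF6 was at 36.8 ± 8.10 CPM in ICC8261 and 35.9 ± 3.51 CPM in ICC283. Its difference between treatments was not called (-0.84 ± 0.25, adjusted p = 0.0909).

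Of 3 tested abscisic acid and ethylene genes, 2 were higher in ICC8261 under drought (66.7%, against 6.19% of all genes). None was called lower (against 4.1%). ACS, a symbol of the enzyme that makes the ethylene precursor, measured 72.4, 80.0 and 72.2 CPM in ICC8261 drought leaves, against 38.6, 35.1 and 27.0 CPM in ICC283 drought leaves. The ICC8261 libraries all lay well above those of ICC283 (1.16 ± 0.22, adjusted p = 0.00792). In well-watered leaves the order was the reverse, with 30.3, 47.6 and 59.4 CPM in ICC8261 and 78.5, 101 and 69.9 CPM in ICC283 (-0.86 ± 0.22, adjusted p = 0.0263). The gene listed as aco, a symbol used for the last enzyme of ethylene synthesis, was at 43.4 ± 4.84 CPM in ICC8261 and 22.7 ± 3.88 CPM in ICC283 (SD, n = 3 each; 0.93 ± 0.19, adjusted p = 0.0108). It lost its call without ICC283 drought library 1 (adjusted p = 0.0592). ACO1, the third gene of this list, had a value of -0.71 ± 0.28 (adjusted p = 0.13). The annotation used gives symbols and synonyms and no product descriptions, so these roles rest on the symbols.

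Phenylpropanoid and isoflavonoid enzymes make flavonoids, isoflavone phytoalexins and lignin precursors. Of 10 tested, 1 was higher and 1 lower in ICC8261 (10% each, against 6.19% and 4.1% of all genes), and 7 had positive values, with a median of 0.57. CHS, the symbol of chalcone synthase, the first committed enzyme of flavonoid synthesis, measured 67.6, 43.1 and 43.6 CPM in ICC8261 drought leaves and 12.2, 14.6 and 13.0 CPM in those of ICC283. The lowest ICC8261 library was far above the highest of ICC283 (1.95 ± 0.27, adjusted p = 0.00131), and CHS was also higher in ICC8261 when well-watered (1.08 ± 0.26, adjusted p = 0.0216). The upstream enzymes PAL and CYP73 had values of 0.68 ± 0.26 (adjusted p = 0.11) and 0.72 ± 0.23 (adjusted p = 0.063) and were not called. CYP81E5, of a cytochrome P450 group that hydroxylates isoflavones, was at 36.6 ± 7.63 CPM in ICC8261 and 67.4 ± 16.7 CPM in ICC283 (SD, n = 3 each; -0.88 ± 0.24, adjusted p = 0.0329; well-watered -0.93 ± 0.24). Its call was lost without ICC8261 drought library 2 or 3 or ICC283 library 1 or 2 (adjusted p up to 0.137).

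UDP-glycosyltransferases (UGTs) attach sugars to hormones, flavonoids and other small molecules. Of 48 tested, 6 were higher (12.5%, against 6.19% of all genes) and 2 lower (4.17%, against 4.1%) in ICC8261 under drought, with a median of 0.21. In well-watered leaves 1 of these 48 was higher (against 5.13% of all genes) and 15 were lower (against 7.56%), with a median of -0.35. UGT78G2 was at 61.1 ± 6.09 CPM in ICC8261 and 35.1 ± 1.39 CPM in ICC283 under drought (SD, n = 3 each; 0.80 ± 0.14, adjusted p = 0.00436), with a like difference when well-watered (0.67 ± 0.14, adjusted p = 0.00976). UGT88E8 measured 4.12, 4.25 and 3.84 CPM in ICC8261 and 1.61, 1.15 and 1.95 CPM in ICC283 under drought (1.38 ± 0.28, adjusted p = 0.00928). In well-watered leaves its means were 8.27 ± 1.56 CPM in ICC8261 and 7.89 ± 1.87 CPM in ICC283. The difference of UGT88E8 between treatments was not called (1.32 ± 0.36, adjusted p = 0.0689). UGT87E3 and UGT85J2 had values of 1.98 ± 0.44 (adjusted p = 0.0155) and 2.00 ± 0.58 (adjusted p = 0.0487), both on low levels.

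UGT71S1 measured 137, 125 and 104 CPM in ICC8261 drought leaves and 238, 220 and 205 CPM in those of ICC283. It was lower in ICC8261 under drought (-0.85 ± 0.19, adjusted p = 0.0134) and when well-watered (-1.99 ± 0.19, adjusted p = 7.56e-05), where it was at 124 ± 23.6 CPM in ICC8261 and 494 ± 108 CPM in ICC283. UGT72X1 was also lower under both treatments (-1.98 ± 0.41, adjusted p = 0.0102; well-watered -2.26 ± 0.41, adjusted p = 0.00508). UGT73C15 measured 32.3, 27.1 and 31.0 CPM in ICC8261 and 29.5, 23.0 and 33.8 CPM in ICC283 under drought, where the groups overlapped (0.07 ± 0.17, adjusted p = 0.836). In well-watered leaves it was at 23.2 ± 2.54 CPM in ICC8261 and 75.1 ± 12.6 CPM in ICC283 (-1.69 ± 0.17, adjusted p = 1.36e-04). UGT85J2 kept its call in 3 of 12 fits with 1 library left out, those without ICC8261 drought library 2, ICC283 drought library 3 and ICC283 well-watered library 1 (adjusted p up to 0.173 in the others). UGT88E8 lost it without ICC283 drought library 2 (0.0544), UGT87E3 without ICC283 library 1 (0.0749) and UGT71S1 without ICC8261 library 3 or ICC283 library 1 (up to 0.0627). UGT87E3 was not called in the 8 libraries (adjusted p = 0.0579). As for the NAC genes, reads shared by close UGT family members were not counted.

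Of 10 tested defence and protease inhibitor genes 2 were higher in ICC8261 (20%, against 6.19% of all genes), 2 were lower (20%, against 4.1%) and 6 were not called. The gene kpi1, named as a Kunitz-type protease inhibitor, measured 26.9, 21.3 and 26.4 CPM in ICC8261 drought leaves and 1.61, 1.86 and 2.60 CPM in those of ICC283. The groups lay far apart (3.62 ± 0.49, adjusted p = 0.00142), and the well-watered value was 1.35 ± 0.44 (adjusted p = 0.0644). For kpi1 the difference between treatments was not called (2.27 ± 0.66, adjusted p = 0.0848). The gene lrr, named for a leucine-rich repeat, measured 11.1, 6.50 and 13.7 CPM in ICC8261 and 0.302, 0.444 and 2.49 CPM in ICC283 under drought. The lowest ICC8261 value was above the highest of ICC283 (3.32 ± 0.62, adjusted p = 0.00829). The well-watered means were 37.7 ± 2.94 CPM in ICC8261 and 34.1 ± 17.5 CPM in ICC283 (0.14 ± 0.44). For lrr the difference between treatments was not called (3.17 ± 0.77, adjusted p = 0.053). ICC283 drought library 3, of conflicting treatment, was the highest of its group. In the 8 libraries the lrr value under drought was 4.99 (adjusted p = 4.60e-04). With the count files' treatments it was 0.22.

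GRP1, named as a glycine-rich protein, measured 0.106, 0.5002 and 0.274 CPM in ICC8261 drought leaves and 1.81, 2.75 and 2.16 CPM in those of ICC283. The groups did not overlap at these low levels (-2.84 ± 0.54, adjusted p = 0.00684). In well-watered leaves GRP1 was higher in ICC8261, at 1.83, 1.36 and 2.29 CPM against 0.615, 0.232 and 0.815 CPM in ICC283 (1.66 ± 0.50, adjusted p = 0.0451). AFP-CA, for which the annotation lists defensin as a synonym, was at 0.316 ± 0.0933 CPM in ICC8261 and 2.42 ± 0.788 CPM in ICC283 (SD, n = 3 each; -2.91 ± 0.63, adjusted p = 0.0129). Its call was lost without ICC8261 drought library 3 or ICC283 library 2 (adjusted p up to 0.0544) and in the 8 libraries (adjusted p = 0.0525). The protease inhibitor gene tpi3 had a value of 2.34 ± 0.87 (adjusted p = 0.1).

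All 6 cell wall genes had positive values under drought (9507 of 18592 over all genes), with a median of 1.29 beside 0.01 over all genes. In well-watered leaves their median was 0.48 beside 0.004. Of the 6, 1 was called higher under drought (16.7%, against 6.19% of all genes) and 0 were called lower (against 4.1%). That gene, pme1, a pectin methylesterase by its symbol, of the enzymes that modify wall pectin, measured 19.6, 18.3 and 18.3 CPM in ICC8261 drought leaves and 7.75, 6.30 and 9.09 CPM in those of ICC283. The ICC8261 libraries were close together and above all of ICC283 (1.29 ± 0.17, adjusted p = 7.80e-04). In well-watered leaves pme1 was not called (0.45 ± 0.16, adjusted p = 0.0814). The expansins CA-EXPA2 and EXPA1, proteins that loosen walls, had values of 1.54 ± 0.52 (adjusted p = 0.079) and 1.29 ± 0.62 (adjusted p = 0.21). XTH1, of the enzymes that cut and rejoin xyloglucan, had 2.03 ± 0.88 (adjusted p = 0.16). For XTH1, EXPA1 and CA-EXPA4 (0.19 ± 0.48) the drought libraries of the genotypes overlapped, and for the other members they did not. The gene bgal, named as a beta-galactosidase, belonged to no list and was lower in ICC8261, at 488 ± 37.8 CPM against 754 ± 85.1 CPM in ICC283 (SD, n = 3 each; -0.63 ± 0.17, adjusted p = 0.0337). Its call was lost in 6 of 12 fits with 1 library left out, those without any ICC8261 drought library, ICC283 drought library 1 or 2 or ICC8261 well-watered library 3 (adjusted p up to 0.132).

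Of 5 tested dehydrin, LEA and osmolyte genes, the textbook markers of drying tissue, 0 were called higher and 0 lower in ICC8261. Over all genes 6.19% were called higher and 4.1% lower, so 0 calls among 5 genes is near those shares. Their median was -0.39 beside 0.01 over all genes. DHN measured 300, 328 and 189 CPM in ICC8261 drought leaves, against 730, 743 and 340 CPM in ICC283 drought leaves. The ICC283 libraries all lay above those of ICC8261, library 3 by little, and the value of -1.15 ± 0.58 was not called (adjusted p = 0.224). In the 8 undisputed libraries, which leave out ICC283 library 3 and ICC8261 library 2, DHN was called lower in ICC8261 (-1.60, adjusted p = 0.0352). CAPLEA-1, a LEA gene by name, was at 26.5 ± 16.1 CPM in ICC8261 and 34.8 ± 8.38 CPM in ICC283 (SD, n = 3 each; -0.39 ± 0.40, adjusted p = 0.573). P5CS, named for the proline synthesis enzyme, was at 26.0 ± 11.1 and 25.3 ± 2.19 CPM in ICC8261 and ICC283 (0.04 ± 0.56, adjusted p = 0.972). CapLEA-2 and the galactinol synthase gene CAGOLS1 had values of -0.16 ± 0.35 (adjusted p = 0.809) and -0.50 ± 0.26 (adjusted p = 0.237). CAGOLS2 had too few reads to be tested. With SEs of 0.58 and 0.56, a like level of DHN and P5CS in both genotypes is not shown.

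The remaining lists held few calls under drought. Over all genes 6.19% were called higher and 4.1% lower in ICC8261, so lists of this length would hold few. None of 11 circadian clock genes was called. Of the 11, 9 had negative values (median -0.31), while 9507 of the 18592 genes tested had positive values (median 0.01). LHY and PRR59A had -0.57 ± 0.22 (adjusted p = 0.11) and -0.81 ± 0.29 (adjusted p = 0.091). Of 14 MAP kinases MAPK8 was the 1 called. None of 5 calcium signalling genes, 5 CAMKK genes and 10 plastid-encoded genes was called. Of the 5 metallothioneins and ferritins, which bind metals and store iron, none was called, and FER2 had the largest value, 2.50 ± 0.76 (adjusted p = 0.059). Of 13 reference and ribosomal protein genes 1 was called: TUBB, a beta-tubulin, was higher in ICC8261, at 272 ± 24.4 CPM against 168 ± 20.9 CPM in ICC283 (SD, n = 3 each; 0.69 ± 0.16, adjusted p = 0.0176), and lost its call without ICC8261 drought library 3 or ICC283 library 1 (adjusted p up to 0.0868).

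**Figure D3:**
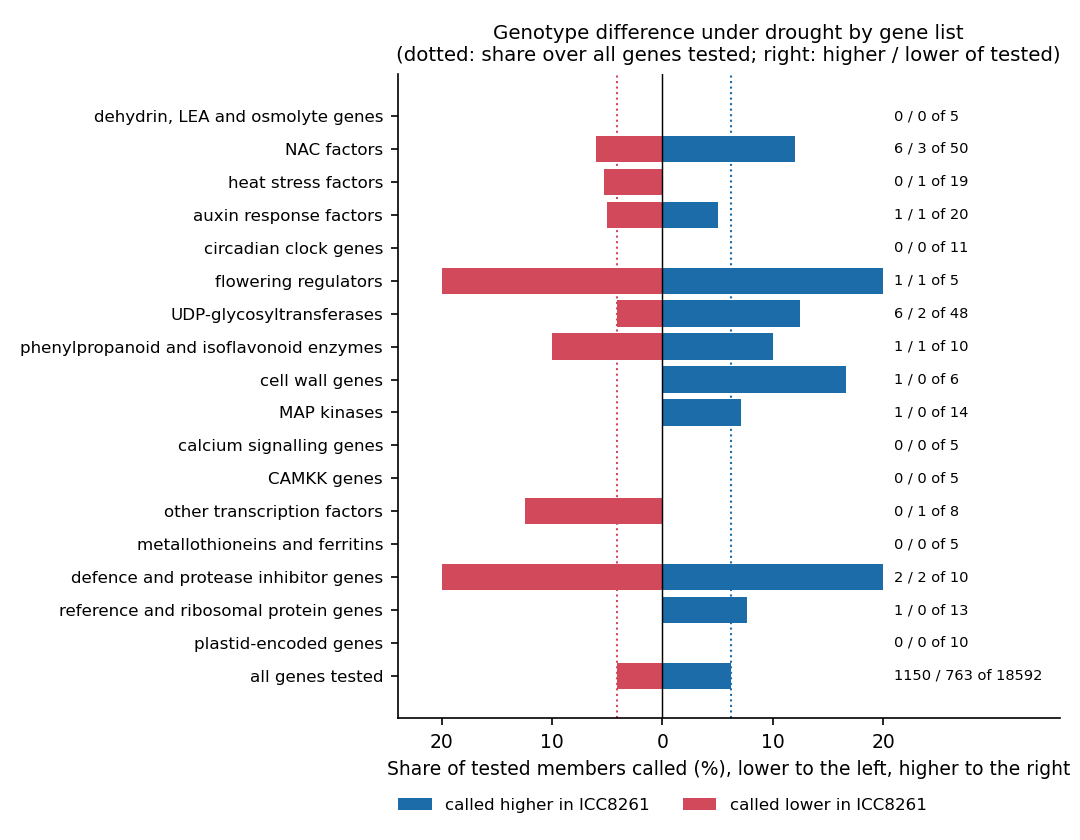
Share of the tested members of each gene list called between the genotypes under drought, those higher in ICC8261 to the right and those lower to the left, for lists with at least 5 tested members. Dotted lines give the shares over all genes tested, 6.19% higher and 4.1% lower, and the numbers at the right are the members higher, lower and tested. NAC factors and UDP-glycosyltransferases had 6 members higher each, and the dehydrin, LEA and osmolyte list had none called.

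A few genes were read in the drought libraries of 1 genotype only, by a rule of at least 10 reads in each of its 3 libraries and 0 in each of the other 3. There were 11 such genes, 5 read in ICC8261 and 6 in ICC283, none of them with a symbol. LOC105852755 had 101, 138 and 106 reads in the ICC8261 drought libraries and 0 in each of ICC283, so it was at least 111-fold higher in ICC8261, against a floor of 3 counts over the group. LOC101501483 was at least 38.0-fold higher in the same sense, with 27, 54 and 37 reads. In the other direction LOC101513277 had 0 reads in each ICC8261 drought library and 82, 95 and 78 in those of ICC283, at least 88.0-fold lower in ICC8261, and LOC101497567 was at least 59.0-fold lower. The well-watered libraries of the genotype without reads were also at 0 for 8 of the 11 genes, and for the other 3 they held 1 read in all each. With a minimum of 5 reads the rule found 22 genes and with 20 reads 5, and in the 8 libraries it found 33. Without ICC8261 drought library 3 it found 19 and without ICC283 drought library 3 it found 22. With fewer libraries the rule has fewer conditions, so its count can only stay or rise. Whether such genes are absent, altered in sequence or not transcribed in 1 genotype was not tested.

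Called genes lay on all 8 chromosomes. Shares higher in ICC8261 lay between 5.598% and 7.08% of the tested genes over 8 chromosomes, and shares lower between 3.23% and 4.46%. In the order of the reference annotation, the next tested gene was called in the same direction for 93 of 1111 placed genes higher in ICC8261 (8.37%, against 6.19% of all placed genes) and for 53 of 723 lower (7.33%, against 4.03%). Of 35 placed genes called with a log2 difference of 5 or more in either direction, 1 pair stood next to each other, with opposite directions.

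The genotype difference under drought overlapped only in part with that in well-watered leaves. In well-watered leaves 2359 genes were called (12.7%), 954 higher (5.13%) and 1405 lower (7.56%) in ICC8261. That count lay between 699 and 5449 when single well-watered libraries were left out, lowest without ICC8261 library 2 and highest without ICC283 library 3, and was 4992 in the 8 undisputed libraries and 98 with the count files' treatments. Of the 1913 genes called under drought, 521 were called in the same direction there, which is 27.2% of the drought calls and 22.1% of the well-watered calls. This held for 221 of the 1150 higher genes (19.2%) and for 300 of the 763 lower genes (39.3%). A further 53 were called in opposite directions and 1339 were not called when well-watered, although 1468 of the 1913 had the same sign. Across the 18592 genes the fold changes of the treatments had a Spearman rho of 0.35. The contrasts share no library but share the normalization and the estimate of spread, and genes are not independent replicates.

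A gene called under 1 treatment and not under the other is not shown to differ between them, so the difference itself was tested. It was called for 479 of the 18592 genes (2.58%), 297 positive (1.6%) and 182 negative (0.979%), among them 262 of the 1913 drought calls (13.7%). Of those 262, 199 were not called in well-watered leaves. Each of the 12 libraries moved this count when left out, with the lowest value, 55, without ICC283 drought library 1 and the highest, 2298, without ICC283 well-watered library 3. It was 2355 in the 8 undisputed libraries and 0 by edgeR with the count files' treatments, where 634 genes had an unadjusted p under 0.05. Among genes with a symbol 10 passed, 9 of them positive. ACS had a difference of 2.01 ± 0.32 (adjusted p = 0.0127), UGT73C15 of 1.76 ± 0.24 (adjusted p = 0.00700) and GRP1 of -4.50 ± 0.73 (adjusted p = 0.0142). These 3 kept the call in all 12 fits with 1 library left out. NAC47, NAC51, NAC6 and NAC69 differed by 2.19 ± 0.40 (adjusted p = 0.0231), 1.87 ± 0.43 (adjusted p = 0.0421), 1.60 ± 0.36 (adjusted p = 0.0413) and 1.39 ± 0.30 (adjusted p = 0.0358), and UGT71S1 by 1.14 ± 0.26 (adjusted p = 0.0421). NAC47 kept this call in 7 of the 12 fits, NAC69 in 4, and NAC51, NAC6 and UGT71S1 in 2 each, and the highest adjusted p over these fits was 0.108. ICC283 well-watered libraries 1 and 2, apart on component 2, enter all of these values, and the count over all genes was 279 without library 1 and 57 without library 2.

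**Figure D4:**
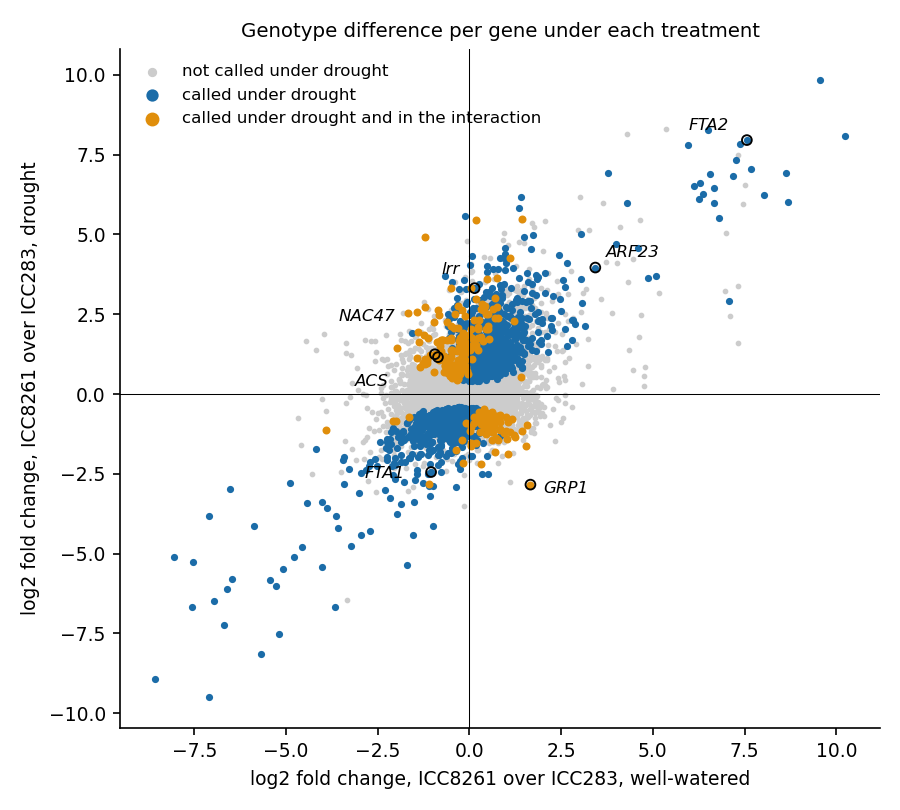
Log2 fold change of ICC8261 over ICC283 under drought (vertical axis) against that in well-watered leaves (horizontal axis), 1 point per gene tested, with called genes and named genes marked. FTA2 and ARF23 were higher in ICC8261 on both axes, while ACS and NAC47 lie above 0 under drought and below 0 when well-watered and GRP1 the other way round.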

How the data were processed

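RNA from leaves was sequenced as paired reads of 150 bases in 12 libraries. Trimmomatic, HTSeq, edgeR, DESeq2, Cufflinks 2.0.2 and TopHat2 2.1.1 are named, without roles, per the submitters' processing notes. Genome build, annotation and strand: not given in the sources used here. Counts per gene and library were deposited by the authors as whole numbers, with tables of normalized counts (a signal: counts divided by a size factor per library, set separately in each genotype's table). Of the values in those deposited tables, 100% were whole multiples of 1 read within 0.02, and the recovered reads equalled exactly 1 count file each over 27233 or more genes (next best 24.1%). Treatment follows the table columns. The authors' deposited comparisons of drought within a genotype were not used here. The 5 HTSeq summary lines of each count file were kept out of library sizes.

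Reads of all 12 libraries were fitted together in edgeR 4.0.16 (R 4.3.3): low counts removed by filterByExpr (minimum count 10, total 15), TMM, 4 group means, robust glmQLFit and a two-sided glmQLFTest, with calls at an adjusted p of 0.05 over all genes tested. The SE is the absolute log2 fold change over the square root of F. CPM are scaled by TMM. Floors and intervals cover counting error only. The code was tested on simulated data. Gene names came from RefSeq (Cicar.CDCFrontier_v2.0), which matched 24398 of 27234 features (89.6%) and named 337 with a symbol, 49 of them with too few reads to be tested. The 24 gene lists were set by symbol, 18 with at least 3 tested members. No list had members for Aux/IAA, aquaporin or nuclear photosynthesis genes, and the seed list had none tested. Short lists not described above are antioxidant enzymes (0 of 1 called) and sugar and starch enzymes (1 of 2 called, Bglc-2).

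The members and lists were chosen with earlier results of these data known. Named genes were the 12 largest per direction among called, separated genes with a symbol and at least 2 CPM, up to 3 called members per list and direction, up to 6 per direction called in the difference between treatments, all tested dehydrin, LEA and osmolyte genes, and 2 unnamed loci per direction. Alternatives were the count files' treatments, the 8 undisputed libraries, only the libraries of a contrast, DESeq2 1.42.0, other scalings, no filter, the replicate number as a block, and leaving out each library. The replicate numbers were not used to pair samples.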

Additional observations from a re-analysis of the deposited data

Results flagged for a closer look

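The genotype difference under drought differed from that in well-watered leaves, by a test of the difference itself (edgeR quasi-likelihood test, adjusted p under 0.05), for 479 genes. Among the named genes the difference between treatments was 1.87 for NAC51, 2.19 for NAC47, 2.01 for ACS, 1.60 for NAC6, 1.39 for NAC69, 1.76 for UGT73C15, 1.14 for UGT71S1 and -4.50 for GRP1 (log2). For ACS and NAC47 each treatment's own contrast was called, with opposite signs, and the same holds for GRP1 with the signs exchanged. For UGT73C15 the contrast was called in well-watered leaves and not under drought, and for UGT71S1 it was called under both. Over all genes the 8 undisputed libraries kept 457 of the 479 calls in the same direction. They are part of the 12 libraries from which these genes were picked. All 8 named genes were called in them. With the count files' treatments none was called: the values lay between -1.71 and 1.17, at adjusted p of 1.00.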

How the results depend on the processing

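With the count files' treatments edgeR called 113 genes under drought (99 by 1 or more on the log2 scale), 98 in well-watered leaves and 0 in the difference between treatments, where 634 had an unadjusted p under 0.05; DESeq2 was not run with those labels. The 8 undisputed libraries gave 3551 (1816 of that size), 4992 and 2355. The cause of the higher counts with fewer libraries was not tested. With only the libraries of a contrast, 1167 genes were called in well-watered leaves and 2020 under drought, and DESeq2 called 1291 in the difference between treatments and 2804 under drought. Other scalings and no filter gave between 1696 and 1916 calls under drought. Genes read in 1 genotype only numbered 22 with at least 5 reads, 5 with at least 20, and 33 in the 8 libraries. Leaving out 1 library gave between 628 and 3035 calls under drought, 452 to 1536 of them of that size, 699 to 5449 in well-watered leaves, 55 to 2298 in the difference, and 11 to 22 genes read in 1 genotype only. The last of these counts cannot fall when a library is left out.

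Deviations from the group means correlated at 0.097, 0.00671 and 0.265 between same-numbered drought libraries of the genotypes. For drought libraries of different number the values lay between -0.284 and 0.24. Same-numbered well-watered libraries gave 0.0562, 0.14 and -0.123. These values do not settle whether the numbers mark pairs, and the numbers were not taken as pairs. A fit with replicate number as a block called 2327 genes under drought, 2727 in well-watered leaves and 615 in the difference, and all 38 named calls remained.

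Over 880 recomputed values of the named genes, 767 kept direction and side of the threshold, 102 lost the call, 30 of them with the count files' treatments, 1 gained it and 10 changed sign. NAC47 was at -0.025 with the count files' treatments. UGT73C15 was at -0.44 there and, with single libraries left out, between -0.086 (ICC283 drought library 2) and 0.20. P5CS was at -0.42 there, -0.22 in the 8 libraries, -0.12 with the block, and with single libraries left out between -0.28 (ICC8261 drought library 2) and 0.33, with -0.023 without ICC283 drought library 1. CapLEA-2 lay between -0.26 and 0.017 (ICC8261 drought library 3), with 0.0063 without ICC283 drought library 2. Of these, only NAC47 was called under drought in the fit reported. Genes of a few reads, such as GRP1 and AFP-CA, are limited by depth.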
